A study of Homo sapiens with 4 samples.

Results

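The response of a pair of human liver cancer lines to the same microRNA mimic was compared gene by gene, to measure how far it depended on the line. For each named gene, the value with the mimic minus the value with the negative control was taken within each line, and the HEP-G2 response was subtracted from the Li-7 response. The result is called the line difference here. It is positive where a gene stood relatively higher after the mimic in Li-7, and negative where it stood relatively higher after the mimic in HEP-G2. A gene was kept where it lay above background in at least 1 array of each line, background being the level below which 95% of that array's negative control probe sets fell. This kept 6524 of 17687 named genes. The rule reads the mimic arrays too: 635 kept genes passed in Li-7 through the mimic array alone and 33 through the control array alone, and in HEP-G2 273 and 219 did. Of the 11163 genes left out, 1096 were above background in Li-7 only, 877 in HEP-G2 only and 9190 on no array.

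Total RNA was hybridised to Affymetrix expression arrays, with 1 array in each of 4 groups. The groups were Li-7 cells with a negative control oligonucleotide, Li-7 cells with a miR-4730 mimic, HEP-G2 cells with the control and HEP-G2 cells with the mimic. All were human liver cancer lines without a stated genetic change, and the mimic was given at 3 nM with the lipid reagent RNAiMAX, 24 h after seeding. The control came from the same supplier, and no separate dose was stated for it. Li-7 was grown in RPMI-1640 and HEP-G2 in DMEM, both with fetal bovine serum, so that line and medium cannot be told apart. With 1 array in each group no difference below has a replicate check or a test, and each compares those arrays.

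A microRNA mimic is a short double-stranded RNA whose guide strand is loaded into Argonaute and pairs, mainly through the bases of its seed near the 5′ end, with sites in messenger RNAs, which are then degraded or translated less. Which transcripts answer in a given cell depends on which targets and which downstream circuits that cell expresses. In proliferating cells, genes of DNA synthesis and genes of mitosis are switched on at different times of the cell cycle through different promoter elements, and genes of cholesterol synthesis are controlled together by the transcription factor SREBP2, which is cut and released when sterols are low. The mature sequence of the microRNA is shown because both lines received it, with the seed (bases 2 to 8) in capitals. It is taken from RefSeq (GRCh38.p14), where it lies at chr17:80419427-80419449 on the plus strand, and 1 mature sequence of that table has this seed.
hsa-miR-4730: cUGGCGGAgcccauuccaugcca

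The labelled tissue was checked first. All 9 hepatocyte markers measured, among them albumin (ALB), alpha-fetoprotein (AFP) and apolipoprotein B (APOB), lay above background on both HEP-G2 arrays. On the Li-7 control array 0 of 9 did, and on the Li-7 mimic array 1 did, SERPINA1. These hepatocyte markers were thus under background on the control array of the line labelled Li-7. Of 8 cholangiocyte and progenitor markers, 7 lay above background on both Li-7 arrays and 5 on both HEP-G2 arrays. Endothelial markers were above background in 0 of 7 cases on every array, and 2 of 8 blood markers were, CD68 and LYZ, while the leukocyte gene PTPRC was not. Of 8 stromal markers, 2 were above background on each array, but COL1A2 alone was so in both lines. HMGA1, the chromatin protein whose pathway the title of the series names as targeted by miR-4730, read 14.93 and 10.91 in Li-7 against 14.79 and 11.61 in HEP-G2 (here and below the control value comes first and the mimic value follows), a line difference of -0.84.

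Of the 6524 kept genes, 491 had a line difference of at least 2-fold in either direction (7.53%), folds being on the deposited scale, which is read as log2. The Li-7 response was the higher one for 267 of them (4.09%) and the lower one for 224 (3.43%). At 4-fold the counts were 12 (0.184%) and 16 (0.245%). After cyclic loess normalization 42.7% of the genes past 2-fold had the higher response in Li-7, against 54.4% as deposited, so the balance between the directions depended on the scaling. The line difference had a median of 0.05 over the kept genes, and the central 95% ran from -1.11 to 1.17 log2 units. Responses were wider in HEP-G2, with a standard deviation over genes of 0.70 log2 units against 0.57 in Li-7.

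Control probe sets show how far the line difference ran elsewhere on the same arrays. Of 2020 positive control probe sets that met the same background rule, 62 were past 2-fold with the higher response in Li-7 (3.07%) and 18 with the lower one (0.891%). Among kept genes above the upper quartile of level 4.29% were past 2-fold, against 1.52% of the positive controls at that level. Below the lower quartile the shares were 8.89% of genes and 17.5% of positive controls, and between it and the median 9.44% and 13.3%. The 299 genes past 2-fold at or below the median level were thus at levels where the positive controls passed more often than genes. Of 30 negative control probe sets that met the background rule, 20 were past 2-fold. In 5 kept genes measured by a pair of probe sets, the pair lay within 0.36 log2 units of each other for 4, while RHOU gave -0.51 and 0.58. Of the 491 genes, 144 had at least 1 array under background and 347 lay above it on all arrays. Over all 6524 kept genes, 5552 lay above background on all arrays, which is a larger share.

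Across the 6524 genes, the responses of the lines had a Pearson correlation of 0.63 and a Spearman correlation of 0.60, given as a description, since genes are not independent replicates and each response is 1 pair of arrays. Of 1104 genes at least 2-fold in either line, 111 had opposite signs (10.1%). Genes at least 2-fold lower with the mimic numbered 284 in Li-7 (4.35%) against 513 in HEP-G2 (7.86%), and 170 were on both lists, which is 59.9% of the Li-7 list and 33.1% of the HEP-G2 list. Genes at least 2-fold higher numbered 201 (3.08%) and 363 (5.56%), and the 84 on both lists were 41.8% and 23.1% of them.

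**Figure D1:**
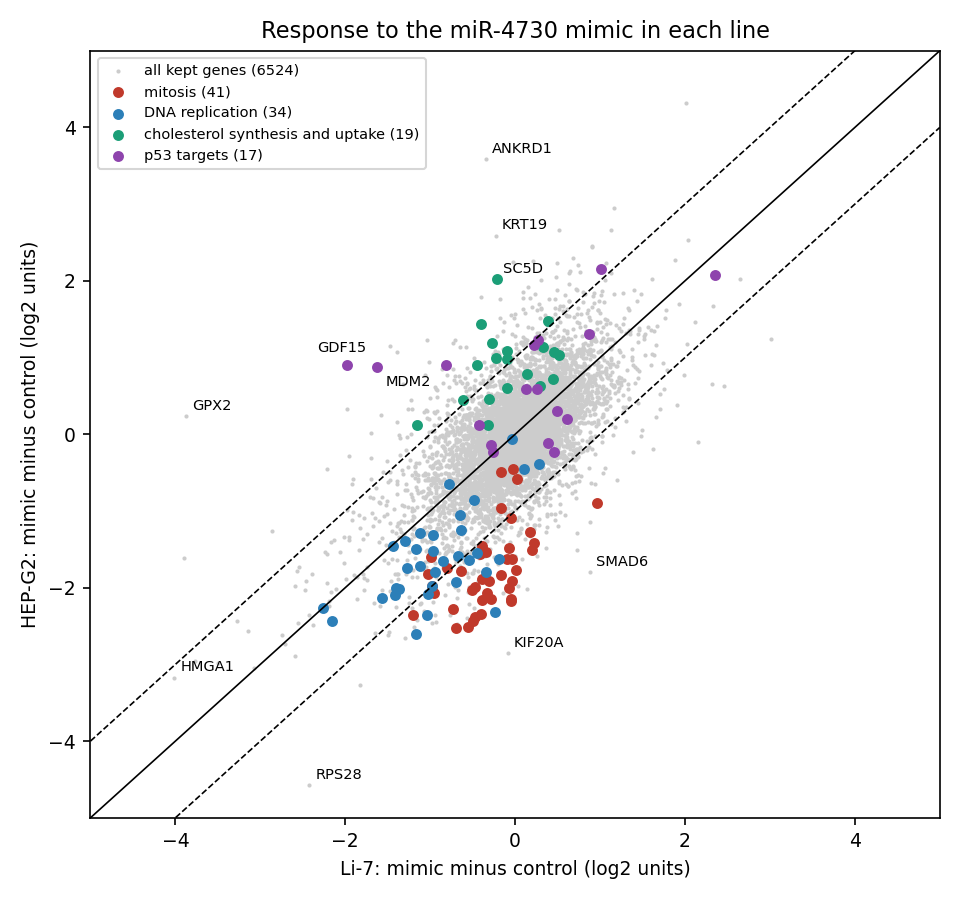
Each point is 1 kept gene, with mimic minus control in Li-7 on the x axis and in HEP-G2 on the y axis (log2 units of single arrays). The solid line marks equal responses and the dashed lines a line difference of 2-fold. Most of the 41 mitosis genes (red) lie below the lower dashed line, most DNA replication genes (blue) lie between it and the solid line, and cholesterol genes (green) lie above the solid line.

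The 267 genes with the higher response in Li-7 were mostly genes that stood lower with the mimic in HEP-G2. In 113 of them the HEP-G2 value was at least 2-fold lower and the Li-7 response was under 0.5 log2 units in size. In 54 both responses were at least 0.5 in size with the same sign, in 30 they were opposed, in 16 the Li-7 response alone was large, and 54 met none of these. Among the 224 genes with the lower response in Li-7, 74 were at least 2-fold higher in HEP-G2 with little response in Li-7. A further 27 were at least 2-fold lower in Li-7 with little response in HEP-G2, 36 were opposed, 33 had the same sign and 54 met none. Genes just inside the 2-fold limit, chosen here after their values were seen, were SKA3 (1.0024) and SLC27A2 (-1.0074). MAD2L1 (0.99966) and PDIA4 (-0.9988) lay just outside it.

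Genes of mitosis had the largest median line difference of the 40 lists. All 41 kept members had a higher response in Li-7 (against 54.2% of all kept genes), and 33 were past 2-fold (80.5%, against 4.09% of all kept genes). Their median response was -0.33 in Li-7 against -1.83 in HEP-G2, with a median line difference of 1.54. All 41 stood lower with the mimic in HEP-G2 (against 50.7% of all kept genes), 36 of them at least 2-fold (against 7.86%). In Li-7 35 stood lower (against 47.7%), 2 of these at least 2-fold (against 4.35%). The same list also stood higher in Li-7 before any mimic: its median value was 12.65 on the Li-7 control array and 11.13 on the HEP-G2 control array. Over the 16 members whose control values differed by under 1 log2 unit, the median line difference was 1.29. The part of the starting level in this gap was not tested.

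The kinetochore protein CENPF stood at 12.31 with the control and 12.26 with the mimic in Li-7, against 11.34 and 9.17 in HEP-G2, a line difference of 2.12. The spindle checkpoint kinase BUB1B read 12.68 and 12.64 in Li-7 against 12.12 and 9.97 in HEP-G2 (2.11). In both genes the Li-7 arrays were nearly level and the HEP-G2 mimic array was the lowest of the 4. Survivin (BIRC5), a subunit of the chromosomal passenger complex, read 11.14 and 10.59 in Li-7 against 10.86 and 8.34 in HEP-G2 (1.97). NDC80, the kinetochore protein that holds microtubules, read 11.54 and 11.13 in Li-7 against 10.53 and 8.19 in HEP-G2 (1.93). HMMR, a spindle assembly factor, read 10.93 and 10.43 in Li-7 against 10.59 and 8.15 in HEP-G2 (1.93). These 3 genes were somewhat lower with the mimic in Li-7 too, and much lower in HEP-G2. NDC80 and HMMR were under background on the HEP-G2 mimic array, and with the background value in its place their line differences were 1.92 and 1.88.

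Other members of the list, chosen after their values were seen, show its range. CDC20, the activator of the anaphase-promoting complex, had responses of -0.07 in Li-7 against -1.999 in HEP-G2. BUB1, a checkpoint kinase, had -0.04 and -1.91, and TOP2A, the topoisomerase that untangles chromosomes, had -0.33 and -2.07. CDK1, the mitotic kinase, and FOXM1, a transcription factor of mitotic genes, were lower in both lines, with -0.96 and -2.07 for CDK1 and -1.20 and -2.35 for FOXM1. The smallest line difference was that of separase (ESPL1), at 0.33, followed by the cytokinesis factor ECT2, at 0.43. CDC25B, a phosphatase that activates mitotic kinases, was the member with opposed responses of at least 0.5 log2 units on each side: it read 12.01 and 12.98 in Li-7 against 10.25 and 9.36 in HEP-G2 (1.86). SPDL1, a recruiter of dynein to kinetochores that was not on the list, behaved in the same way, with 12.12 and 12.84 in Li-7 against 10.503 and 9.22 in HEP-G2 (2.01).

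Among kinesins, the motors that walk on microtubules, the wide gaps were those of motors of mitosis. Of 15 kept members 10 were past 2-fold with the higher response in Li-7 (66.7%, against 4.09% of all kept genes) and 0 in the other direction (against 3.43%), with a median of 1.34. KIF20A, a motor of cytokinesis, had the largest positive line difference of the 6524 genes, 2.77: it read 12.34 and 12.25 in Li-7 against 11.57 and 8.72 in HEP-G2. The HEP-G2 mimic array alone stood apart there. Motors of the spindle and midzone followed, such as KIF22 (1.65), KIF2C (1.51, and 0.97 with the background value), KIF18A (1.49) and KIF11 (1.31). The transport motors, chosen after their values were seen, showed no such gap, with -0.35 for KIF5B, -0.29 for KIF1B, -0.26 for KIF3A and 0.10 for KIF13B. KIF14 (1.79) and KIF18B (1.79) rested on HEP-G2 mimic values under background. With background values in their place they stood at 0.43 and -0.20, the median of the list at 0.97, and 7 members were past 2-fold.

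**Figure D2:**
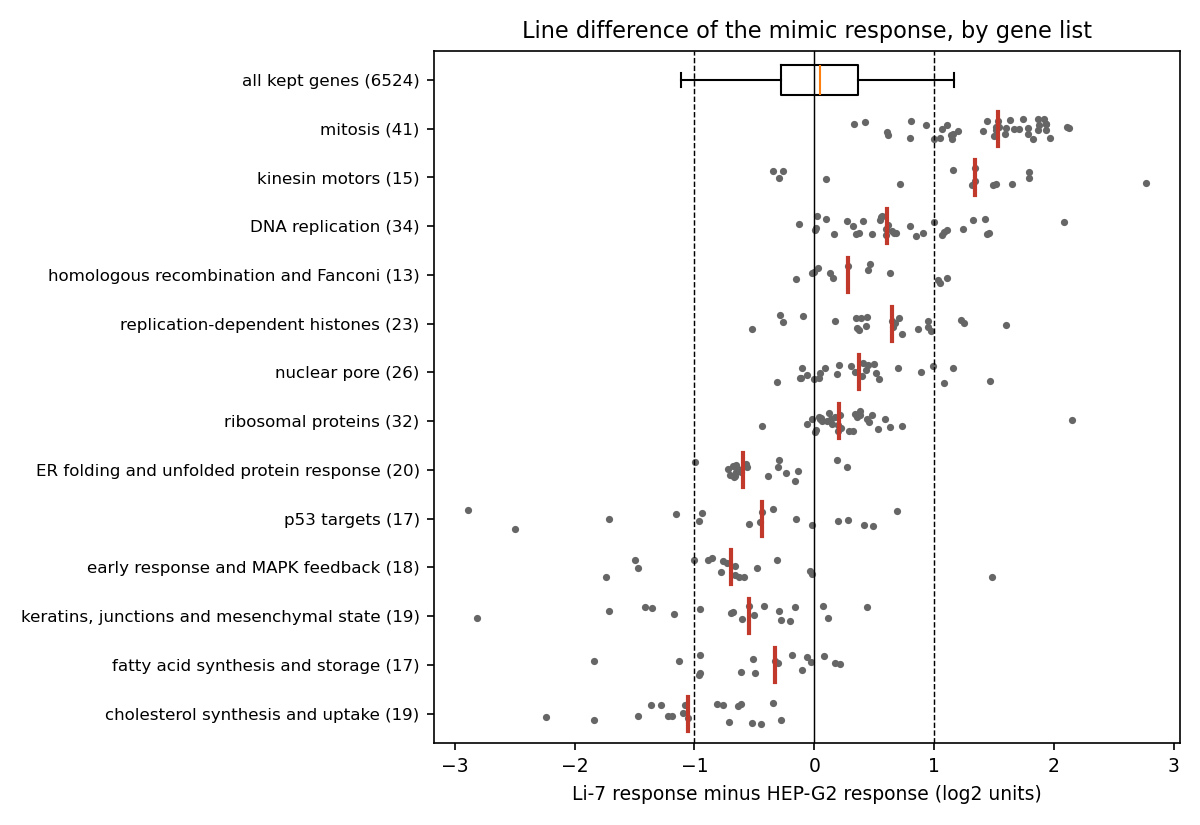
Each grey point is the line difference of 1 kept gene (Li-7 response minus HEP-G2 response, log2 units) in the list named on the left, and the red bar is the list median. The box at the top shows all 6524 kept genes, with whiskers over the central 95%, from -1.11 to 1.17, and the dashed lines mark 2-fold. The mitosis list lies wholly above 0 and the cholesterol list wholly below it.

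Promoter sequences are shown for 4 of the mitotic genes and, as a contrast, for 2 replication genes, because a short element differed between these lists. The replication genes were chosen because their response was nearly the same in both lines, so their lack of a gap follows from that choice. They do not stand for their list, most of which had the higher response in Li-7, as given below. The E2F site was in 8 of 28 replication promoters. All 4 mitotic genes shown held the element, called CHR below. KIF20A, which had the largest positive line difference (2.77), did not hold it. Late cell cycle genes carry the cell cycle genes homology region (CHR, TTTGAA), which is read by the DREAM and MuvB complexes, often next to CCAAT boxes (CCAAT), which are read by NF-Y. Genes of the start of DNA synthesis carry E2F sites (searched as TTTCCCGC). Each was searched on both strands, so TTTGAA also appears as TTCAAA and CCAAT as ATTGG, in the window from 250 bases before to 50 bases after the start given by RefSeq (GRCh38.p14). None of the 3 strings contains another, though CCAAT boxes on opposite strands can overlap, as they do in HMMR. The windows were chr1:214602945-214603244, plus strand for CENPF; chr15:40160819-40161118, plus strand for BUB1B; chr18:2571307-2571606, plus strand for NDC80; chr5:163460382-163460681, plus strand for HMMR; chr13:33817899-33818198, plus strand for RFC3; and chr20:5126573-5126872, minus strand for PCNA. They are written in the direction of the gene, with CHR, CCAAT and E2F matches in capitals.
CENPF: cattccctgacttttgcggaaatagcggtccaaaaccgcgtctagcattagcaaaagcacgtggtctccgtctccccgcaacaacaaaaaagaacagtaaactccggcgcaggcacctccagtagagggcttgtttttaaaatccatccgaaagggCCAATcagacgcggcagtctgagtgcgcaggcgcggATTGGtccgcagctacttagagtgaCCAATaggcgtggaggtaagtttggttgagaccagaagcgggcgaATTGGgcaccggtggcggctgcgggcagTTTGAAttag
BUB1B: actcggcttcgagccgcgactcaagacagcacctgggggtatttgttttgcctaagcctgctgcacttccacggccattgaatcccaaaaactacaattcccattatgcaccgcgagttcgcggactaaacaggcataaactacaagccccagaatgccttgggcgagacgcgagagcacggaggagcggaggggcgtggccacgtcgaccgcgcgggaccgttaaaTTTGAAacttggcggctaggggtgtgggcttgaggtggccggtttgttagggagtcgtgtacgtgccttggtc
NDC80: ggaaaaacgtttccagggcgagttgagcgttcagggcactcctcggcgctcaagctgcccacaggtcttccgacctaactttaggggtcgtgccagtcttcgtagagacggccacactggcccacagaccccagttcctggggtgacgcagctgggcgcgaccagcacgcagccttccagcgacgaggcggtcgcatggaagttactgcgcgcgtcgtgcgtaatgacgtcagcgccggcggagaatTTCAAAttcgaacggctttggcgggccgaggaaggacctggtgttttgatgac
HMMR: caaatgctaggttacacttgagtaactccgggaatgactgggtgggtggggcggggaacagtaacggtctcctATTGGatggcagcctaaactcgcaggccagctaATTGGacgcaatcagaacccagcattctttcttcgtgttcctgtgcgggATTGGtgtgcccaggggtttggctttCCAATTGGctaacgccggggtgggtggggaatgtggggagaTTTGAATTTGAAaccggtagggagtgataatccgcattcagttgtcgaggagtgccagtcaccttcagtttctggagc
RFC3: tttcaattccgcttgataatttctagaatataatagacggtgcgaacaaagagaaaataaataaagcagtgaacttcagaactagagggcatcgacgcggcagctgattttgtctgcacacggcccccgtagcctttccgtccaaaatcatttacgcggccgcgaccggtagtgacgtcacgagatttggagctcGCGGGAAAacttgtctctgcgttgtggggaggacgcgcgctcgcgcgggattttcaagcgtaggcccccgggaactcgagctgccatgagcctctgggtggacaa
PCNA: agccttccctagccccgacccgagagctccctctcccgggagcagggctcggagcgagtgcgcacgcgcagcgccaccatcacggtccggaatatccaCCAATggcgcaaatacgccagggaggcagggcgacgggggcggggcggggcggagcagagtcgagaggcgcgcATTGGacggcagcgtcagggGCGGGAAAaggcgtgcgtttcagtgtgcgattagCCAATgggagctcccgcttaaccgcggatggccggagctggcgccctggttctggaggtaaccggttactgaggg

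Counted from the start of the gene, the CHR match began at position 40 in CENPF, -23 in BUB1B, -3 in NDC80 and -28 in HMMR, which held another copy at -22. CENPF and HMMR also held CCAAT boxes, which BUB1B and NDC80 did not in this window. RFC3 and PCNA held an E2F site, at -55 and -59, and no CHR. RFC3, a subunit of the clamp loader, read 12.48 and 10.21 in Li-7 against 12.84 and 10.58 in HEP-G2. PCNA, the sliding clamp, read 13.95 and 12.51 in Li-7 against 14.49 and 13.03 in HEP-G2, so that both genes stood lower by nearly equal amounts in each line.

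Promoters were found for 5551 of the 6524 kept genes. CHR was present in 77.1% of 35 mitosis promoters and 64.3% of 14 kinesin promoters, against 10.0% of the promoters of all kept genes and 15.4% of all 27305 promoters in the table. It was present in 3.57% of 28 DNA replication promoters. Within 100 bases before to 50 bases after the start, 24 of the 35 mitosis promoters held it (68.6%), against 4.16% of kept genes. The E2F site was in 28.6% of replication promoters, 2.86% of mitosis promoters, 3.03% of kept genes and 1.66% of all promoters. The CCAAT box was frequent in several lists, with 74.3% of mitosis, 85.7% of kinesin, 82.4% of cholesterol and 84.2% of endoplasmic reticulum folding promoters, against 38.4% of kept genes and 35.7% of all promoters.

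Read the other way, 265 kept genes held both CHR and a CCAAT box, and 42 of them were past 2-fold with the higher response in Li-7 (15.8%, against 4.09% of all kept genes with a promoter). Of 289 genes with CHR and no CCAAT box 15 were (5.19%), and of 1866 with a CCAAT box and no CHR 70 were (3.75%). Much of this lay in the lists already described: of 518 CHR genes outside the mitosis and kinesin lists 29 were past 2-fold (5.60%), and of the 199 of these with CHR near the start 17 were (8.54%). The 4.09% over all kept genes with a promoter still includes those lists, so it is not a like base for these shares. Of 168 kept genes with the E2F site 11 were past 2-fold with the higher response in Li-7 (6.55%). With the variant TTTGGCGC also counted and CHR genes left out, 13 of 213 were (6.10%). The median line difference was 0.20 over genes with CHR and 0.20 over genes with the E2F site, so the gap was not particular to CHR. Within the mitosis and kinesin lists the median line difference was 1.47 over 36 genes with CHR and 1.51 over 13 genes without. Inside these lists, genes with and without the letters therefore had about the same median. Outside both lists, 10 of 65 genes lower in HEP-G2 alone held CHR near the start (15.4%, against 4.16% of all kept genes with a promoter). The largest line differences among these 10 were those of PRR11 (1.70) and FAM72A (1.48). The spindle-associated gene SKA3 (1.00), the cyclin-dependent kinase subunits CKS1B (1.26) and CKS2 (1.04), and the midbody protein CEP55 (1.01) were others. So were NEIL3 (1.21) and PRPF31 (1.04). All were chosen after their values were seen. The HEP-G2 mimic value of CEP55 (7.39) was under background (8.20). A match is a description of letters in the window, and binding was not measured.

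**Figure D3:**
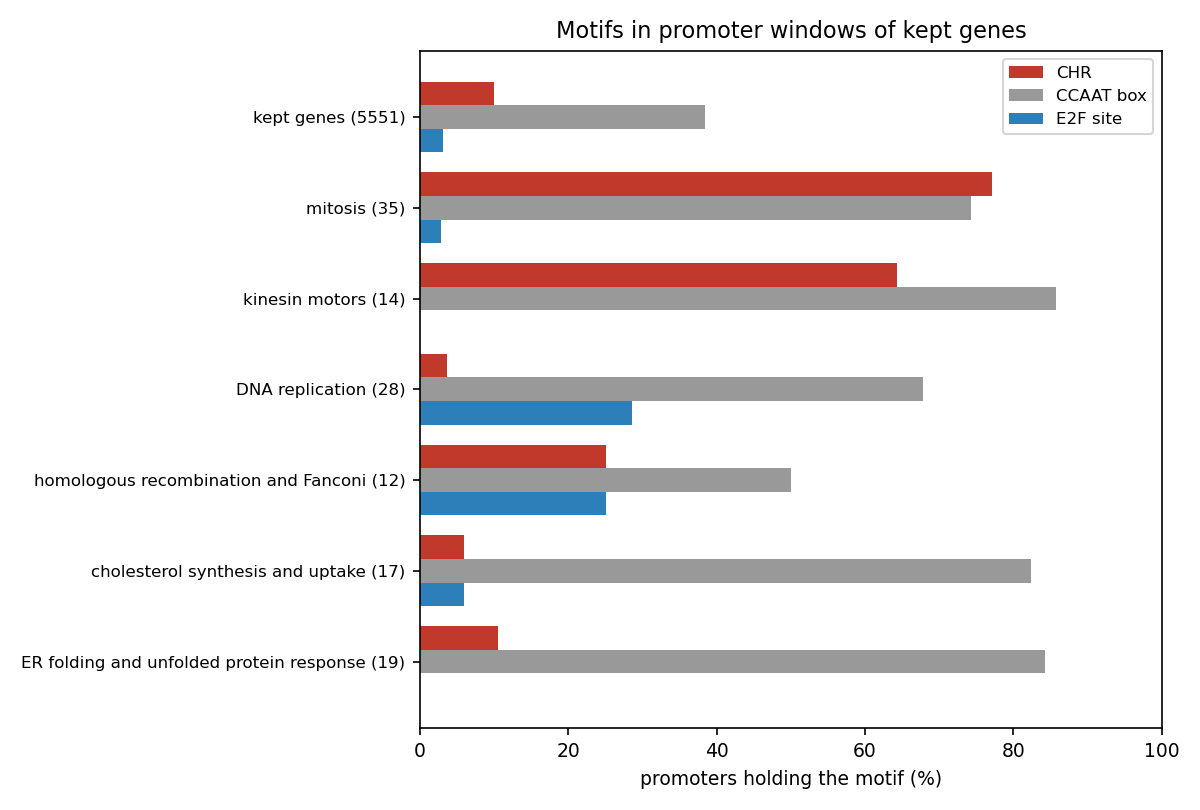
Bars give the share of promoter windows (percent, x axis) that hold the CHR, the CCAAT box or the E2F site, for all kept genes and for 6 lists, with the number of promoters in brackets. CHR is in 77.1% of mitosis promoters and 3.57% of replication promoters, where the E2F site is in 28.6%.

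Genes of DNA replication mostly stood lower with the mimic in both lines, and less so in Li-7. Of 34 kept members 32 were lower in both (against 34.7% of all kept genes) and 33 had the higher response in Li-7 (against 54.2%). They had median responses of -0.96 in Li-7 against -1.64 in HEP-G2, with 15 (Li-7, against 4.35% of all kept genes) and 29 (HEP-G2, against 7.86%) at least 2-fold lower. The median line difference was 0.61, and 9 members were past 2-fold (26.5%, against 4.09% of all kept genes), all with the higher response in Li-7. With background values 6 were, and 2 in the other direction. UHRF1, which guides maintenance DNA methylation, was the furthest out, with 10.89 and 10.66 in Li-7 against 11.31 and 8.995 in HEP-G2 (2.08). Cyclin A2 (CCNA2) had 1.44 and thymidine kinase (TK1) 1.43. GINS3 and MCM2, subunits of the replicative helicase, had 1.46 and 1.33, and 0.50 and 0.86 with background values. Thymidylate synthase (TYMS) was the 1 member with a negative value, -0.13. With both responses scaled to one standard deviation the median of the list was 0.28.

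Genes of homologous recombination and the Fanconi pathway had a small median line difference. Their 13 kept members all stood lower in both, with medians of -1.21 and -1.83, a median line difference of 0.28 and 3 past 2-fold with the higher response in Li-7 (against 4.09% of all kept genes). With background values 1 was, and 1 in the other direction. BRCA1, chosen after its values were seen, had -1.79 in Li-7 against -1.83 in HEP-G2, and BRIP1, its partner helicase, had -1.75 and -1.73. FANCI, a Fanconi protein that is ubiquitinated at stalled forks, had -0.12 and -1.23. Of the 13 genes 5 lay above background on all 4 arrays. The HEP-G2 mimic values of BRCA1 (7.04), BRIP1 (7.27) and FANCI were under background, which was 8.20 there. FANCI had a line difference of 0.30 with the background value. The near-equal responses of BRCA1 and BRIP1 thus rested on values under background. BRCA1 was the member past 2-fold in the other direction with background values.

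Replication-dependent histones, which package new DNA, had a median line difference of 0.65 over 23 kept members, with 3 past 2-fold with the higher response in Li-7 (against 4.09% of all kept genes). H2AC11 read 14.88 and 14.11 in Li-7 against 9.17 and 6.82 in HEP-G2 (1.60), and its HEP-G2 mimic value was under background (0.21 with the background value). H1-5, a linker histone, read 15.69 and 14.73 in Li-7 against 10.78 and 8.598 in HEP-G2 (1.22). H2BC14 had the lowest value of the list, -0.52, with -3.50 in Li-7 against -2.99 in HEP-G2. Histone genes are near-identical copies, so the assignment of signal among them is uncertain. Of 26 nuclear pore genes 3 were past 2-fold with the higher response in Li-7 (against 4.09% of all kept genes), NUP35 (1.46), NUP107 (1.16, its HEP-G2 mimic value under background) and NUP160 (1.08), and the median was 0.37.

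In the high mobility group, 2 of 8 kept members were past 2-fold with the higher response in Li-7 (against 4.09% of all kept genes). HMGA2, the close relative of HMGA1, read 7.74 and 9.89 in Li-7 against 8.45 and 8.35 in HEP-G2 (2.25), so the Li-7 mimic array alone was high, and the Li-7 control array was under background. With the background value in its place the line difference was 1.27. HMGB2, a chromatin protein of dividing cells, read 13.29 and 13.15 in Li-7 against 12.99 and 10.91 in HEP-G2 (1.93), a pattern like that of the mitotic genes. HMGA1 itself had responses of -4.02 in Li-7 against -3.17 in HEP-G2.

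**Figure D4:**
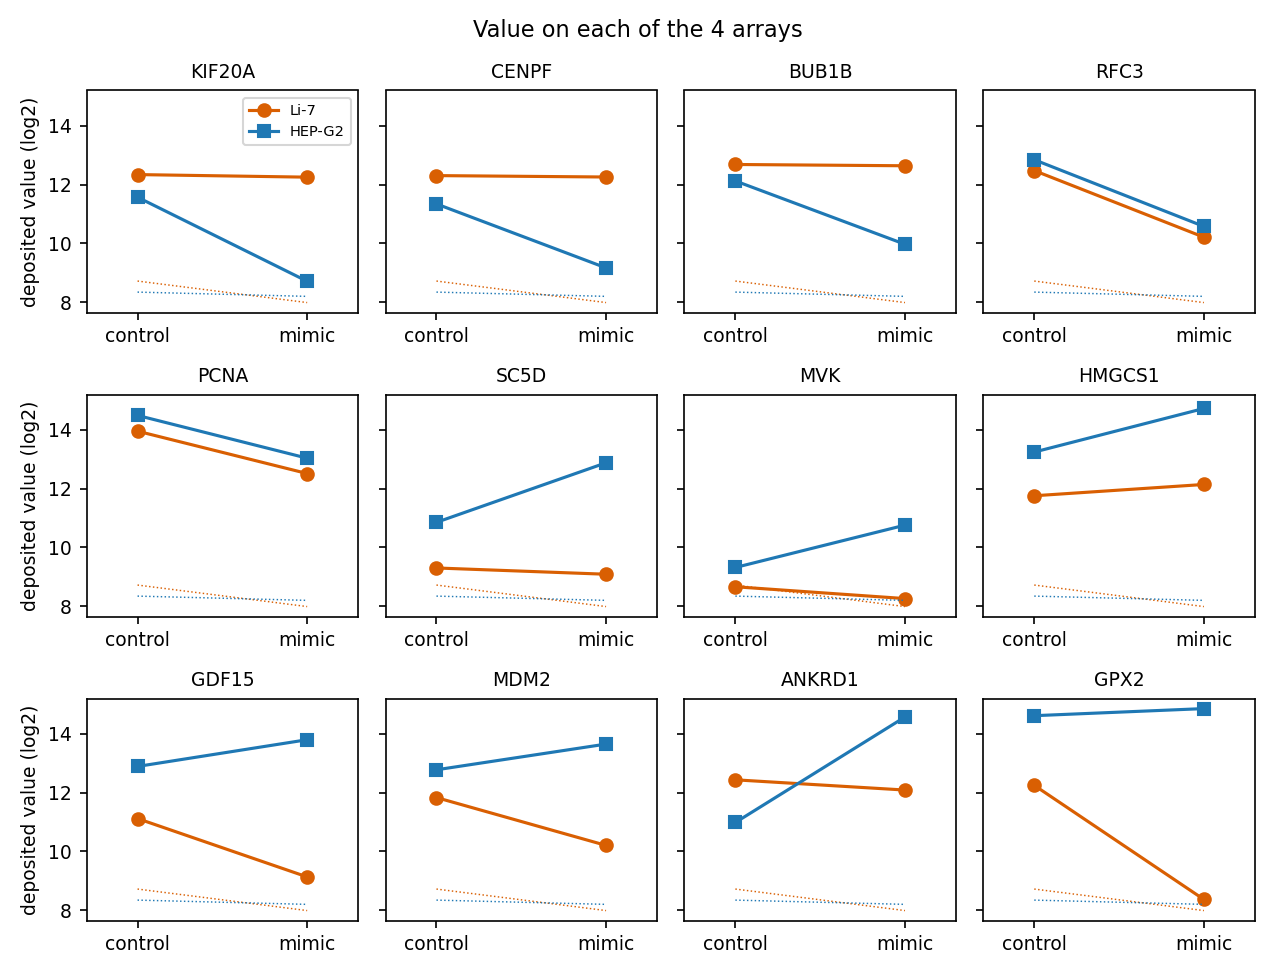
Each panel gives the deposited value (log2, y axis) of 1 gene on the control and the mimic array of Li-7 (orange circles) and HEP-G2 (blue squares), and the dotted lines give the background of those arrays. KIF20A, CENPF and BUB1B are level in Li-7 and lower with the mimic in HEP-G2. RFC3 and PCNA, chosen for nearly equal responses, run in parallel. SC5D, MVK and HMGCS1 are highest on the HEP-G2 mimic array.

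Genes of cholesterol synthesis and uptake showed the opposite gap. All 19 kept members had the lower response in Li-7 (against 45.8% of all kept genes), and 10 were past 2-fold (52.6%, against 3.43% of all kept genes). Their median response was -0.10 in Li-7 against 0.98 in HEP-G2, with a median line difference of -1.06. All 19 stood higher with the mimic in HEP-G2 (against 49.3%), 8 of them at least 2-fold (against 5.56%), while 7 stood higher in Li-7 (against 52.3%) and 0 of these at least 2-fold. The list also stood higher in HEP-G2 from the start, with control medians of 10.87 in Li-7 against 11.86 in HEP-G2. The part of this starting level in the gap was not tested.

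SC5D, which makes a sterol double bond late in the pathway, read 9.30 and 9.09 in Li-7 against 10.85 and 12.88 in HEP-G2 (-2.23). Mevalonate kinase (MVK) read 8.67 and 8.26 in Li-7 against 9.32 and 10.76 in HEP-G2 (-1.84), and its Li-7 control value was under background (-1.90 with the background value). In both genes the HEP-G2 mimic array was the highest of the 4. Lanosterol synthase (LSS), which closes the sterol rings, read 10.13 and 9.85 in Li-7 against 11.44 and 12.64 in HEP-G2 (-1.47). FDPS, which makes farnesyl diphosphate, read 13.22 and 12.76 in Li-7 against 13.83 and 14.74 in HEP-G2 (-1.36). EBP, a sterol isomerase, was past 2-fold by its Li-7 side, with -1.16 in Li-7 against 0.12 in HEP-G2 (-1.28). HMGCS1, which makes the precursor of mevalonate and was chosen after its values were seen, was higher in both lines, by 0.38 and 1.48. SREBF2, the gene of SREBP2, had 0.29 and 0.63. SCAP, the escort of SREBP2, had -0.61 and 0.45.

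The promoters of SC5D and MVK are shown because these genes had the largest gaps of the list. The windows were chr11:121292521-121292820, plus strand for SC5D and chr12:109573544-109573843, plus strand for MVK (RefSeq, GRCh38.p14), with CCAAT boxes in capitals, read as ATTGG on the opposite strand. SC5D held 1 and MVK held 5.
SC5D: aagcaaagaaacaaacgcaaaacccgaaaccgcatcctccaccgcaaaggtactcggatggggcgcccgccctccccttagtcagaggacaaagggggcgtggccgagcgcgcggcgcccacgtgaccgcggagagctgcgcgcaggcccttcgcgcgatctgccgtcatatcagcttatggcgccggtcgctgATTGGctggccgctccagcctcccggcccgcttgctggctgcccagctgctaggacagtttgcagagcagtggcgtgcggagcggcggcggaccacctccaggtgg
MVK: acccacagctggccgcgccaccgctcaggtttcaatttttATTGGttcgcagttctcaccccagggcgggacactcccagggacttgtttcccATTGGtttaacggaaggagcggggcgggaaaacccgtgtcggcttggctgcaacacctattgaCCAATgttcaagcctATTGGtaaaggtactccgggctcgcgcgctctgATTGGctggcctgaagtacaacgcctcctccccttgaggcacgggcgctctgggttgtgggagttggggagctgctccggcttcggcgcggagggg
An element of the form TCACNCCAC, by which SREBP binding sites were searched on both strands, was in 5.88% of 17 promoters of the list, 1.21% of kept genes and 1.15% of all promoters.

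Fatty acid genes followed in part. Of 17 kept members 2 were past 2-fold with the lower response in Li-7 (against 3.43% of all kept genes), and the median was -0.33. Fatty acid synthase (FASN) read 11.995 and 10.41 in Li-7 against 13.20 and 13.46 in HEP-G2 (-1.84), so that its gap came from the Li-7 side. ACSL4, which activates polyunsaturated fatty acids, read 8.74 and 8.85 in Li-7 against 12.62 and 13.87 in HEP-G2 (-1.13). The desaturase SCD had -0.33 and 0.62, and the lipid droplet coat gene PLIN2, chosen after its values were seen, was higher by about the same amount in both lines, 1.18 and 1.20. Genes of folding in the endoplasmic reticulum had a median of -0.59, with 18 of 20 members below 0 (against 45.8% of all kept genes), and 0 were past 2-fold. PDIA4, a disulfide isomerase, had -0.96 in Li-7 against 0.04 in HEP-G2, and the chaperone HSPA5 had -0.66 and 0.04.

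**Figure D5:**
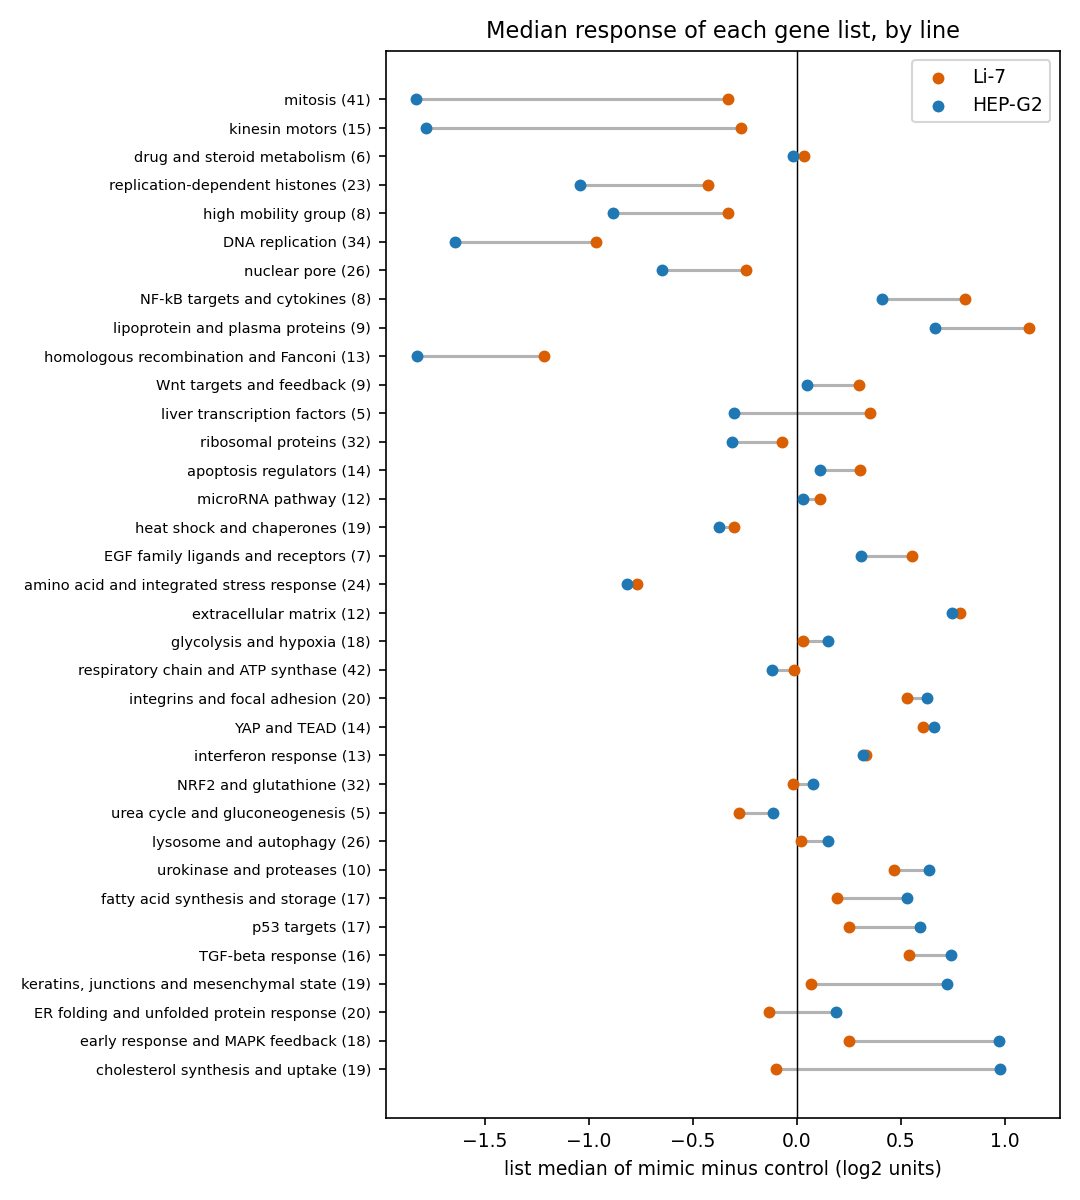
Points give the median of mimic minus control (log2 units, x axis) over the kept members of each list of at least 5 genes, in Li-7 (orange) and HEP-G2 (blue), with the number of members in brackets, ordered by the median line difference. The lists at the top and at the bottom are mitosis, with -0.33 in Li-7 against -1.83 in HEP-G2, and cholesterol synthesis and uptake, with -0.10 and 0.98.

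Targets of the tumour suppressor p53 were uneven. Of 17 kept members 4 were past 2-fold with the lower response in Li-7 (against 3.43% of all kept genes) and 0 in the other direction, and the median was -0.44. GDF15, a secreted stress cytokine, read 11.12 and 9.14 in Li-7 against 12.89 and 13.80 in HEP-G2 (-2.89). MDM2, the ubiquitin ligase that restrains p53, read 11.83 and 10.21 in Li-7 against 12.77 and 13.65 in HEP-G2 (-2.50). The ribonucleotide reductase subunit RRM2B read 11.88 and 11.07 in Li-7 against 11.13 and 12.02 in HEP-G2 (-1.71). These 3 were lower with the mimic in Li-7 and higher in HEP-G2. The cell cycle inhibitor CDKN1A was higher in both, with 8.94 and 9.95 in Li-7 against 11.24 and 13.40 in HEP-G2 (-1.15). TP53INP1, chosen after its values were seen, had 2.36 and 2.07. Its Li-7 values were 6.36 and 8.71, and the background of the Li-7 control array was 8.72. The rise of TP53INP1 in Li-7 thus rested on a value under background. With background values 6 members of the list were past 2-fold with the lower response in Li-7.

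The negative extreme of the 6524 genes was GPX2, a glutathione peroxidase of epithelia, which read 12.25 and 8.37 in Li-7 against 14.61 and 14.85 in HEP-G2 (-4.12). Its Li-7 mimic array alone was low. It was the 1 member past 2-fold (against 7.53% of all kept genes in either direction) among 32 genes of NRF2 and glutathione, whose median was -0.10. ANKRD1, a stretch-induced target of YAP, read 12.43 and 12.09 in Li-7 against 10.98 and 14.57 in HEP-G2 (-3.93), and there the HEP-G2 mimic array alone was high. CCN2, a matricellular YAP target, read 9.54 and 9.14 in Li-7 against 11.26 and 13.05 in HEP-G2 (-2.19). CCN1, its relative, was higher in both lines, with 10.32 and 11.49 in Li-7 against 6.77 and 9.72 in HEP-G2 (-1.78), with a HEP-G2 control value under background and a line difference of -0.20 with the background value. These were the 3 past 2-fold of 14 YAP and TEAD genes (against 3.43% of all kept genes), whose median was -0.07.

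Among keratins, junction and mesenchymal genes, 5 of 19 were past 2-fold with the lower response in Li-7 (against 3.43% of all kept genes), with a median of -0.54. With background values 4 were, since the annexin ANXA3 went from -1.36 to -0.57. Keratin 19 (KRT19), a cytoskeletal protein of duct cells, read 14.84 and 14.61 in Li-7 against 9.07 and 11.66 in HEP-G2 (-2.82). Claudin 2 (CLDN2), a tight junction pore, read 12.62 and 11.77 in Li-7 against 8.63 and 9.48 in HEP-G2 (-1.71). S100A11, a calcium-binding protein, had 0.72 and 1.89 (-1.17). Of these 19 genes 18 stood higher in Li-7 on the control arrays, and KRT19 on the HEP-G2 mimic array lay between the HEP-G2 control and both Li-7 arrays.

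Early response and MAPK feedback genes, which are switched on by growth factor signals, had 4 of 18 members past 2-fold with the lower response in Li-7 (against 3.43% of all kept genes) and 1 with the higher (against 4.09%), and a median of -0.70. DUSP6, a phosphatase of ERK, read 11.16 and 10.95 in Li-7 against 12.29 and 13.57 in HEP-G2 (-1.50). The receptor EPHA2 read 10.98 and 10.27 in Li-7 against 8.45 and 9.21 in HEP-G2 (-1.47). DUSP1, another phosphatase, had -1.74, and -0.53 with background values, and FOSL1, an AP-1 subunit, had -1.01 and -0.38. MYC, the growth-promoting transcription factor, was the exception, with 12.15 and 12.27 in Li-7 against 12.50 and 11.14 in HEP-G2 (1.49).

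Opposed responses, of at least 0.5 log2 units on each side, were given by 36 of the genes with the lower and 30 with the higher response in Li-7. LGR5, a Wnt-associated receptor of progenitor cells, read 10.34 and 8.87 in Li-7 against 12.25 and 13.40 in HEP-G2 (-2.62). MICB, a stress ligand seen by natural killer cells, read 10.57 and 9.18 in Li-7 against 10.79 and 11.86 in HEP-G2 (-2.46). The sulfotransferase SULT1C2 read 11.59 and 10.55 in Li-7 against 8.63 and 9.87 in HEP-G2 (-2.27). These 3 genes were lower with the mimic in Li-7 and higher in HEP-G2, each at least 2-fold. The phosphate carrier SLC20A1 read 12.88 and 11.86 in Li-7 against 12.61 and 13.55 in HEP-G2 (-1.96).

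In the other direction, SMAD6, an inhibitor of BMP signals, read 11.64 and 12.53 in Li-7 against 10.80 and 9.01 in HEP-G2 (2.68). SOX9, a transcription factor of progenitor and duct cells, read 9.59 and 10.47 in Li-7 against 11.41 and 10.27 in HEP-G2 (2.03). Both were higher with the mimic in Li-7 and lower in HEP-G2. ID1, a target of BMP signals, ran the opposite way, with -0.59 in Li-7 against 0.74 in HEP-G2. ID2 of the same list, chosen after its values were seen, was higher in both lines, with 0.96 and 1.46. The activity of BMP signals was not measured. MAP2K6, a kinase upstream of p38, had 0.73 and -1.51 (2.24), with a pair of arrays under background, and 0.98 with background values.

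Further large line differences were those of single genes. RPS28, which belongs to the small subunit of the ribosome, was lower in both lines, with 15.90 and 13.48 in Li-7 against 16.07 and 11.50 in HEP-G2 (2.15). It was the 1 of 32 ribosomal protein genes past 2-fold (against 7.53% of all kept genes in either direction). EIF4EBP1, an inhibitor of cap-dependent translation, read 11.36 and 11.40 in Li-7 against 11.81 and 9.84 in HEP-G2 (2.01). The calcium pump ATP2B4 had 2.15, with a pair of arrays under background (1.18 with background values). TTYH3, a chloride channel family member, was lower in both lines, with 11.99 and 8.09 in Li-7 against 9.88 and 8.27 in HEP-G2 (-2.28). Its mimic values lay just above background, which was 7.99 for the Li-7 mimic array and 8.20 for the HEP-G2 one. What its unequal control values contributed to this gap was not tested. MPZL2, an adhesion protein, was lower in Li-7 alone, with -1.98 against 0.33 (-2.31). Urokinase (PLAU), the protease that activates plasminogen, read 13.95 and 16.41 in Li-7 against 7.83 and 8.46 in HEP-G2 (1.83, and 2.35 with the background value for the HEP-G2 control). The kinase SGK2 had -0.02 and 2.25 (-2.27, and -2.45 with background values). TMC7 (-2.31) and the small heat shock protein HSPB8 (-2.14) had -0.05 and -0.12 with background values, so their line differences rested on values under background.

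Genes of the TGF-beta and BMP response had a median of -0.51 over 16 members, with SMAD6 and ID1 past 2-fold in opposite directions. BAMBI, a decoy receptor of that family, had 0.74 in Li-7 against -0.20 in HEP-G2, and SKIL, a corepressor of SMAD proteins, had 0.20 against 1.08. The 20 genes of integrins and focal adhesion had a median of -0.05, and 3 were past 2-fold with the lower response in Li-7 (against 3.43% of all kept genes) and 1 with the higher. The collagen receptor subunit ITGA2 read 10.48 and 11.11 in Li-7 against 10.67 and 12.78 in HEP-G2 (-1.47), so the HEP-G2 mimic array stood above the other 3. The actin-binding gene CNN2 was lower in both lines, with responses of -2.87 and -1.27 (-1.60), and the integrin activator FERMT1 had 0.19 and -1.06 (1.25). Of 10 urokinase system and protease genes, PLAU and the inhibitor SERPINB9 (-1.93) were past 2-fold (against 7.53% of all kept genes in either direction). Their median was -0.23 over the 10 genes.

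Signalling lists with few kept members had medians closer to 0. Over all kept genes, 7.53% were past 2-fold in either direction. In the NF-kB list of 8 genes 0 were past 2-fold, the median was 0.34, and the inhibitor NFKBIA had 1.27 in Li-7 against 0.36 in HEP-G2. Of 7 EGF family and related receptors 0 were past 2-fold, with a median of 0.03, and EGFR was higher in both lines, with 1.05 and 2.01. Among 9 Wnt targets the median was 0.27, and TNFRSF19 (1.82, and 0.089 with the background value for the Li-7 control) and LGR5 were past 2-fold. Of 13 interferon response genes 1 was, the RNA sensor OAS1, which read 10.22 and 9.17 in Li-7 against 8.58 and 8.90 in HEP-G2 (-1.37), and the median was -0.10. Of 14 apoptosis regulators 1 was, BCL2L1 (-1.22), with a median of 0.16, while the killer protein gene BCL2L11 had 0.73 and -0.19.

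Liver functions were thinly represented, since a gene had to be above background in Li-7 too. Of the lipoprotein and plasma protein genes 9 were kept, with a median of 0.28, and VTN, the adhesive plasma protein vitronectin, had 0.68 and 2.29 (-1.61, and -1.77 with the background value for the Li-7 control). SERPINA1 (1.16) was under background on the Li-7 control array and had -0.91 with the background value. The 5 liver transcription factor genes had a median of 0.24 and the 5 urea cycle and gluconeogenesis genes a median of -0.16, with 0 past 2-fold in either list. The 6 drug and steroid metabolism genes had a median of 0.75, which became -0.023 with background values. The hypoxia and glycolysis list of 18 genes had a median of -0.04 and 2 past 2-fold (against 7.53% of all kept genes in either direction). These were the vasodilator peptide ADM (-1.31, its HEP-G2 control value under background) and the collagen hydroxylase P4HA1 (-1.01). Of 26 lysosome and autophagy genes, with a median of -0.16, SQSTM1 (-1.60), an autophagy receptor, and ATG7 (1.11), an enzyme of autophagosome formation, were past 2-fold. SQSTM1 read 15.39 and 15.35 in Li-7 against 13.13 and 14.69 in HEP-G2. Of the markers of other cell types, lysozyme (LYZ) had -1.39 in Li-7 against 0.16 in HEP-G2 (-1.55), and CD68 was lower by about the same amount in both lines, with -0.62 and -0.63.

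Several larger lists also had medians near 0. For comparison, 7.53% of all kept genes were past 2-fold in either direction. Of 42 respiratory chain and ATP synthase genes 0 were past 2-fold and the median was -0.05. Of 19 heat shock and chaperone genes 1 was, HSPB8, with a median of 0.06. Of 24 genes of amino acid supply and the integrated stress response 3 were, GDF15 (-2.89), SLC7A5 (-1.08) and DDIT4 (1.69), with a median of 0.00 and responses of -0.77 and -0.82 in the lines. Of 12 extracellular matrix genes 3 were, CCN2, CCN1 and the basement membrane collagen COL4A2 (-1.40, and -0.65 with the background value), with a median of 0.00. With background values 1 of the matrix genes was. In all, 77 of the 267 genes with the higher response in Li-7 were on a list, 43 of them on the mitosis or kinesin list. In the other direction 46 of the 224 were. Of all 6524 kept genes 619 were on a list, and the lists were chosen with earlier results of these data known.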

How the data were processed

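Per the submitters' processing notes, the authors used the Transcriptome Analysis Console and the Expression Console of Affymetrix (versions not given). The authors deposited 1 table of probe-set values, read here as log2. Its log base, its normalization and a genome build are not stated in any label or header. The values reach 18.31, above a plain log2 of usual scanner readings, so folds are on the deposited scale. Their precision is limited by 1 array in each of 4 groups, taken from the sample titles, and no column of values was left unmapped.

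Gene names came from the platform annotation, updated through the RefSeq table (17709 of 17709 identifiers matched). For 20 genes with several probe sets, the one with the highest mean was used. Genes and 40 lists (1190 entries, 1156 distinct genes, 1021 with a probe set, 619 kept) were chosen with earlier results of these data known. Named genes were the 15 largest line differences in each direction, the 10 largest opposed ones, HMGA1 and up to 5 members per list. Others were named after their values were seen. No test was possible. Differences were computed in Python 3.11.15 with pandas 2.3.3, alternatives in R 4.3.3 with limma 3.58.1, and the procedure was tested on simulated data. Alternatives covered normalization, centring, scaling, background, fold limit, control levels and probe sets.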

Additional observations from a re-analysis of the deposited data

Results flagged for a closer look

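Opposite signs in the lines, with at least 0.5 log2 units on each side, drew attention to 19 named genes. With 1 array in each group the difference was not tested, and no gene has a spread. The response was lower in Li-7 for GDF15 (line difference -2.89), LGR5 (-2.62), MDM2 (-2.50), MICB (-2.46), SULT1C2 (-2.27), SLC20A1 (-1.96), the protease inhibitor SERPINB9 (-1.93), CLDN2 (-1.71), RRM2B (-1.71), EPHA2 (-1.47), the integrin subunit ITGB5 (-1.35), ID1 (-1.33) and the survival gene BCL2L1 (-1.22). It was higher in Li-7 for SMAD6 (2.68), MAP2K6 (2.24), SOX9 (2.03), SPDL1 (2.01), CDC25B (1.86) and DDIT4 (1.69). Among probe sets without a gene name, which the report does not use, 60 of 916 above background were past 2-fold (6.55%, against 7.53% of named genes).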

How the results depend on the processing

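The count of genes past 2-fold, 267 with the higher and 224 with the lower response in Li-7, was 914 and 999 without the background filter, 77 and 67 above the 99th percentile of the negative controls, and 151 and 93 where the control arrays differed by under 1 log2 unit. It was 881 and 716 at 1.5-fold, and 12 and 16 at 4-fold. The correlation of the responses was 0.40 without the filter, and the percent of genes at least 2-fold in either line with opposite signs was 21.3% without it and 6.68% at the 99th percentile. The medians of the mitosis list (1.29 to 1.57), the replication list (0.28 to 0.67) and the cholesterol list (-1.16 to -0.80) kept their sign under every alternative run. Medians near 0 did not in all lists: Wnt targets ran from -0.31 to 0.27, YAP targets from -0.17 to 0.51, integrins from -0.16 to 0.37 and lipoprotein genes from -0.18 to 0.44, and the EGF, amino acid, matrix, heat shock and microRNA lists also crossed 0. With values under background set to it, 8 named genes changed sign, 4 of them past 2-fold before or after: CYP1A1 -0.38, KIF18B -0.20, SERPINA1 -0.91 and IRF9 -1.36. The others were APOE -0.66, APOA4 -0.20, APOH -0.018 and SLC25A1 0.73. The median of drug and steroid metabolism became -0.023. Of 92 named genes past 2-fold, 26 came under the limit in some alternative, CYP1A1, KIF18B and SERPINA1 among them. No paired analysis was possible because the groups share no more than 1 replicate number, and leaving out a replicate was not possible with 1 array in each group.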

Other observations

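DICER1, the enzyme that cuts microRNA precursors, read 9.12 and 10.82 in Li-7 against 8.73 and 9.26 in HEP-G2 (1.18). It was the 1 of 12 kept genes of the microRNA pathway past 2-fold (against 7.53% of all kept genes in either direction). DROSHA, which acts before it, was lower in both lines (-1.65 and -1.09), and the silencing scaffold TNRC6A was higher in both (1.28 and 0.71). Of the drug and steroid metabolism list, AKR1C2 and AKR1C3, related reductases of steroids, were near level in Li-7 (-0.01 and 0.19). Both were lower with the mimic in HEP-G2 (-1.59 and -0.98). AKR1C1, a relative on the same list chosen after its values were seen, had 0.07 in Li-7 against -0.26 in HEP-G2.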
